A study of Mus musculus with 12 samples.

Results

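Natriuretic peptides are small hormones cut from longer precursors, and the heart is their main source. Nppa encodes atrial natriuretic peptide, Nppb encodes B-type natriuretic peptide and Nppc encodes C-type natriuretic peptide. Corin, a membrane serine protease of heart muscle cells, cuts the Nppa precursor into its active form. Npr1 and Npr2 encode receptors whose inner part makes cyclic GMP, the first answering mainly to the products of Nppa and Nppb and the second to that of Nppc. Npr3 encodes a receptor without a cyclase part that takes the peptides up and clears them. In the mouse embryo Nppa and Nppb are known as marks of working chamber muscle, and Npr3 is known from the endocardium, the inner lining of the heart.

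These 7 genes were taken by symbol from the 21563 rows of the deposited comparison table, and each symbol matched 1 row. The study compared poly-A RNA of 2 dissected tissues, the heart tube (HT) and the posterior second heart field (pSHF), the mesoderm behind the heart that adds cells to the atria. Both groups came from wild-type CD1 embryos at E10.0, with 6 libraries each and no treatment. Per the labels, HT and pSHF were taken from the same embryo, but they do not tie a library to an embryo or say whether embryos were pooled, so the p-values cover only spread from library to library, which may be technical. Levels are the authors' deposited normalized gene counts, that is, reads per gene after scaling each library; rebuilt depths were 19089557 to 26287281 reads per library.

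The libraries carried the markers of their labelled tissues. All 8 cardiomyocyte and all 5 ventricular markers were higher in HT, and the second heart field genes Isl1 and Osr1 were higher in pSHF (-2.05 and -5.01 as log2 fold change HT over pSHF). Markers of other cells differed as well. All 12 erythroid genes were higher in HT and held 1.66 to 7.10% of the summed counts there, against 0.350 to 0.693% in pSHF. All 7 foregut endoderm, 5 of 5 tested neuronal, 5 of 6 neural crest, all 6 hepatic and all 5 tested macrophage genes were higher in pSHF, with 1 neural crest gene higher in HT. Epicardial genes went both ways, with 4 of 7 passing toward HT and 2 toward pSHF. Myh6, a heart muscle myosin gene, had 16792 ± 5181 normalized counts in pSHF against 150380 ± 11196 in HT (SD, n = 6 each), so pSHF libraries held heart muscle transcripts.

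Of the 7 genes, 6 reached the minimum mean of 5 normalized counts and entered the test, limma on log2(value + 1) with Benjamini-Hochberg adjustment over 14909 genes. All 6 passed an adjusted p of 0.05, 4 with higher levels in HT (Nppa, Nppb, Npr3 and Corin) and 2 with higher levels in pSHF (Npr1 and Npr2). In that comparison 78.3% of all genes tested passed, 38.3% toward HT and 40.0% toward pSHF, so a pass alone does not set these genes apart. With library totals made equal instead, 3924 genes passed toward HT and 8159 toward pSHF, in place of 5708 and 5968. For the same 6 genes the libraries of the tissues did not overlap, which held for 60.5% of genes tested. Nppc, at a mean below 5, was not tested there. Set against all genes, the peptide genes stood far out and the cyclase receptors did not: 99.8% of genes tested had a smaller absolute log2 fold change than Nppa or Nppb, 82.2% a smaller one than Npr3, 75.3% than Corin, 45.7% than Npr1 and 29.8% than Npr2.

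**Figure D1:**
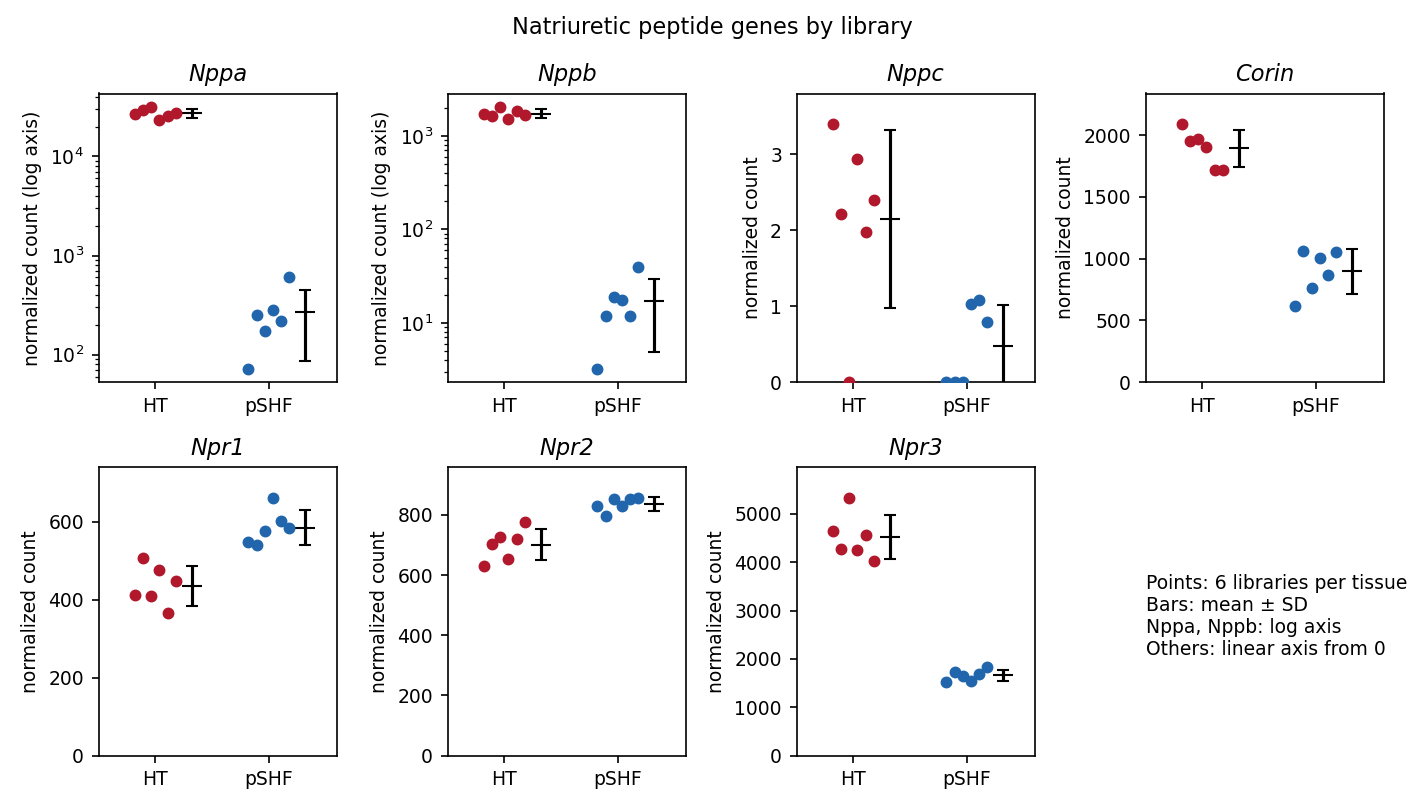
Normalized gene count of each natriuretic peptide gene in the 6 HT and 6 pSHF libraries, with mean ± SD beside the points; Nppa and Nppb are on log axes. HT lay above pSHF in every library for Nppa, Nppb, Npr3 and Corin and below it for Npr1 and Npr2, and Nppc lay between 0 and 3.39 in all 12.

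Nppa and Nppb lie side by side on chromosome 4 of the mouse build GRCm38 (mm10), both on the forward strand. In GENCODE, Nppb (ENSMUSG00000029019.8) runs from 147985788 to 147987205 and Nppa (ENSMUSG00000041616.9) from 148000722 to 148002079, 13517 bases further on, each with 3 exon blocks. Sequence before their starts in RefSeq (GRCm38.p6, forward strand) is shown because these genes moved together and because Nppa has long served as a test case of heart gene control: 250 bases for Nppa and, for Nppb, the 27 bases that hold its GATA and M-CAT matches. The RefSeq start of Nppb, 147985900, lies inside the first exon that GENCODE gives it. The core bound by NK2 homeobox factors is AAGTG. The T-box motif was GGTGTGA. The GATA motif was AGATAA. The M-CAT motif, bound by Tead factors, was GGAATG. These were sought on both strands, and the TATA motif TATAAA on the forward strand alone. Capitals mark all matches to these motifs.

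Nppa, chr4:148000472-148000721: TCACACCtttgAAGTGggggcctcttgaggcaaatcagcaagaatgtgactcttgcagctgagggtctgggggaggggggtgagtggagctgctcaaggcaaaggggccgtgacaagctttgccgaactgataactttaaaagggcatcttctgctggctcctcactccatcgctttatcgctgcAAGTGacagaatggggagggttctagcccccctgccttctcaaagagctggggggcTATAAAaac

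Nppb, chr4:147985795-147985821: GGAATGcagctgataaatcagAGATAA

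The Nppa window held AAGTG at 239 to 235 and at 65 to 61 bases before the start, and the T-box motif, as its reverse complement, at 250 to 244. The second AAGTG lies within an E-box (CANNTG), and another E-box lies at 195 to 190. The Nppb window held GGAATG at 105 to 100 and AGATAA at 84 to 79 bases before the start, with an E-box at 99 to 94 between them. E-boxes are not in capitals unless another motif covers them. TATAAA began 9 bases before the start of Nppa and 31 before that of Nppb; it was added to the search after the sequences were seen. Among 32851 RefSeq windows of this length, AAGTG was in 40.7%, GGTGTGA in 3.33%, AGATAA in 9.99%, GGAATG in 12.6%, CANNTG in 66.2% and forward TATAAA in 7.59%. The CArG box, bound by Srf, was in 1.47% and in none of the 7 genes' windows. Of the other members' windows, that of Nppc held TATAAA, those of Npr2, Npr3 and Corin an E-box, and that of Npr1 none of these motifs. Such matches describe letters only.

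Nppa was the most abundant of the 7 in HT. Its normalized count ran from 23298 over a median of 27005 to 31865 in HT, and from 71.4 over a median of 234 to 609 in pSHF. The lowest HT library therefore exceeded the highest pSHF library by far, and libraries differed more among themselves in pSHF, with a coefficient of variation of 68.2% against 10.9% in HT. The mean was 27428 ± 2979 in HT against 268 ± 183 in pSHF (SD, n = 6 each), and the fitted log2 difference HT over pSHF was 6.94 ± 0.34 (standard error; limma, adjusted p = 5.45e-11), the third largest toward HT among the genes tested. In the raw counts the difference was smaller, at 5.14 for Nppa. In bulk tissue, fewer cells that make a transcript and less transcript per cell cannot be told apart. GENCODE places the antisense gene Gm13054 over 532 exon bases of Nppa. The kit named in the labels does not mark strand whereas the protocol text calls the reads stranded, so reads from that gene may be counted here.

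Nppb showed the same difference at a lower level. Its normalized count ran from 1531 over 1691 to 2063 in HT, and from 3.20 over 14.6 to 39.4 in pSHF. Again no libraries overlapped, and the coefficient of variation was 71.6% in pSHF and 10.9% in HT. The mean was 1740 ± 189 in HT against 17.1 ± 12.2 in pSHF (SD, n = 6 each), and the fitted log2 difference was 6.88 ± 0.37 (standard error; limma, adjusted p = 1.53e-10), the fifth largest toward HT. In pSHF this rests on few reads: rebuilt read numbers were 3 to 50 per library for Nppb and 67 to 772 for Nppa.

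The ratio of the paired genes to each other overlapped between the tissues although their levels lay 102-fold apart by their means. Reads of Nppa per read of Nppb were 14.0 to 18.2 in HT, with a median of 15.6, and 9.23 to 22.3 in pSHF, with a median of 17.3. On the log2 scale the mean ratio was 3.98 ± 0.13 in HT and 4.04 ± 0.46 in pSHF (SD, n = 6 each), a difference of -0.06 (exact two-sided permutation test over 924 relabelings, p = 0.794, adjusted over 4 ratios 0.794). A missed threshold does not show that the ratio is equal, and this one moved with single pSHF libraries: without MR15 the difference was -0.23 (exact permutation, adjusted p = 0.0866), without MR13 0.02 (adjusted p = 0.942), and with 1 added to every value 0.06 (adjusted p = 0.859); over the 12 fits leaving out 1 library the adjusted p was 0.0866 to 0.976. Likeness was measured over the 12 libraries after centring each gene's log2 values, among genes tested whose symbol is not a predicted name. This measure includes the difference between the tissues, so genes of like log2 fold change lie near each other by construction. Nppb was the gene nearest to Nppa and Nppa the nearest to Nppb, at a root mean square difference of 0.274. Next for both came Myh7, beta-myosin heavy chain, at 0.473 from Nppa and 0.492 from Nppb, and then Pln, the inhibitor of the calcium pump, at 0.543 and 0.629.

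Within pSHF the libraries with the lowest and the highest peptide gene levels were also extreme for heart muscle genes. Nppa was at 0.260% of its HT mean in library MR13, 0.635 to 1.04% in 4 libraries and 2.22% in MR18. Nppb was at 0.184% in MR13, 0.682 to 1.08% in 4 libraries and 2.27% in MR18. MR13 was also lowest and MR18 highest for Myh6 (6.09 and 15.6% of the HT mean), the summed cardiomyocyte markers (5.06 and 11.3%), the summed ventricular markers (0.612 and 1.37%) and Myl2, the ventricular myosin light chain (0.0320 and 0.169%). The summed atrial markers varied less and were lowest in MR16, at 14.7%, and highest in MR18. Genes and markers other than those of muscle shared part of this order. Npr3 was also lowest in MR13 (33.8%) and highest in MR18 (40.6%). The summed endothelial and endocardial markers were lowest in MR13 (51.6%) and highest in MR17 (59.1%). The erythroid share of summed counts was lowest in MR15 (0.350%) and highest in MR18 (0.693%). Nppa lay between Myl2 and Myh6 in its remaining level in all 6 libraries. Among the 4 libraries between the extremes, the order of the peptide genes was not that of muscle genes. Of these, MR16 had the highest Nppa (1.04%) but the lowest Myh6 (9.19%) and summed cardiomyocyte markers (6.48%). MR14 had the highest Myh6 (13.9%) and summed cardiomyocyte markers (9.71%), with Nppb at 0.685%. The part of dissected heart muscle in these pSHF levels was not tested. Without MR18 and the HT library of highest erythroid share, MR28R, a setting chosen after seeing the data, the log2 fold changes were 7.28 for Nppa and 7.20 for Nppb.

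**Figure D2:**
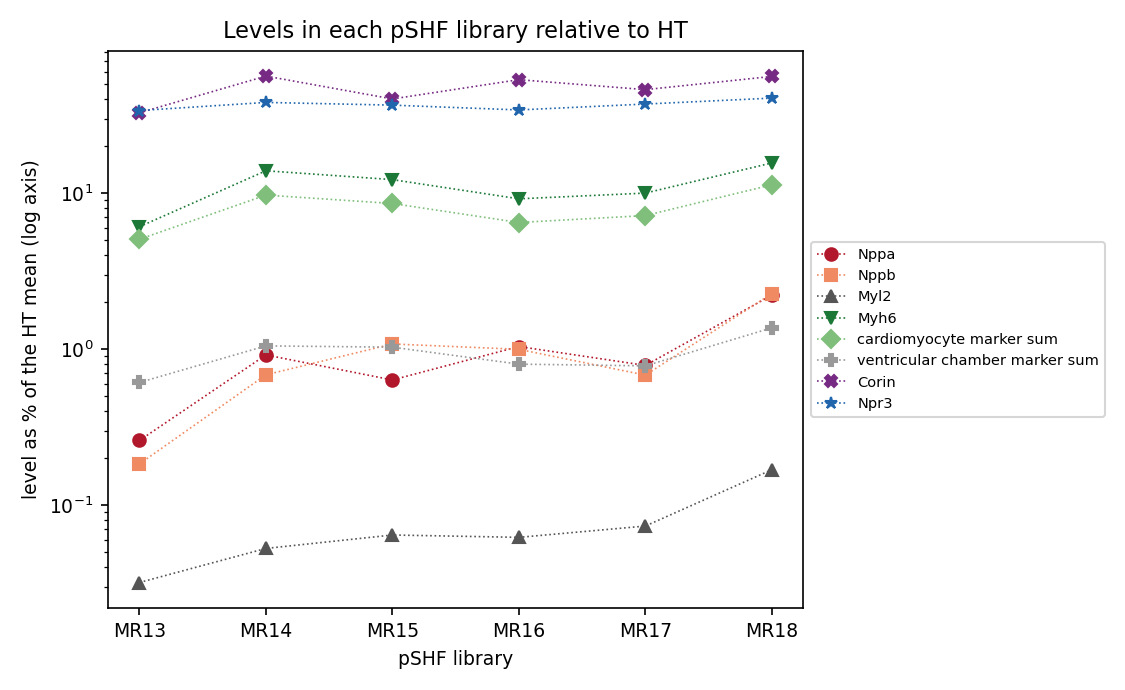
Level in each of the 6 pSHF libraries as a percentage of the HT mean (log axis) for Nppa, Nppb, Corin, Npr3, the muscle genes Myl2 and Myh6 and 2 marker sums; dotted lines join points of 1 gene and imply no order. MR13 was lowest and MR18 highest for every item shown but Corin, which was lowest in MR13 and highest in MR14. Nppa and Nppb ran from about 0.2 to 2.3%, and Npr3 stayed between 33.8 and 40.6%.

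In HT the same 2 libraries were extreme for both peptide genes: MR27 was highest and MR28R lowest for Nppa and for Nppb. MR28R had the largest erythroid share, 7.10%, and the lowest cardiomyocyte marker sum, 1.81% of summed counts. MR27 had an erythroid share of 2.36% and a cardiomyocyte sum of 2.25%. The lowest erythroid share, 1.66%, and the highest cardiomyocyte sum, 2.28%, were those of MR25. Yet MR25 lay below the HT mean for Nppa (26685 against 27428) and for Nppb (1703 against 1740). The part of tissue make-up in the HT levels was not tested. With the erythroid genes removed and library totals made equal, the log2 fold changes were 6.75 for Nppa and 6.69 for Nppb.

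The 9 protein-coding neighbours described here did not share this difference. All 9 were tested, 4 were higher in HT and 3 in pSHF, and none had an absolute log2 fold change above 4.36. Of all genes tested 38.3% passed toward HT and 40.0% toward pSHF, so these counts alone do not set the neighbours apart. Clcn6, a chloride and proton exchanger gene on the reverse strand, has its near end, not its start, 2180 bases beyond Nppa. It had 1286 ± 114 normalized counts in HT against 1315 ± 36.6 in pSHF (log2 difference -0.04, adjusted p = 0.539). 2510039O18Rik, the nearest of them beyond Nppb at 38474 bases, was higher in HT (0.565). The largest differences were those of Draxin, a neural guidance gene at 21.5 ± 4.57 in HT and 457 ± 76.4 in pSHF (-4.36), and of Mfn2, a mitochondrial fusion gene at 4859 ± 279 in HT and 1374 ± 75.4 in pSHF (1.82). Agtrap (1.34) and Plod1 (0.41) were higher in HT and Mad2l2 (-0.435) and Miip (-0.165, adjusted p = 0.0479) in pSHF, and Fv1 did not pass (-0.11, adjusted p = 0.427). All values are from the limma fit. With library totals made equal, 5 of the 9 passed toward pSHF, among them Clcn6 (-0.28, adjusted p = 0.000187) and Fv1 (-0.36, adjusted p = 0.0163), and Clcn6 also passed with equal upper quartiles (-0.125, adjusted p = 0.0400).

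**Figure D3:**
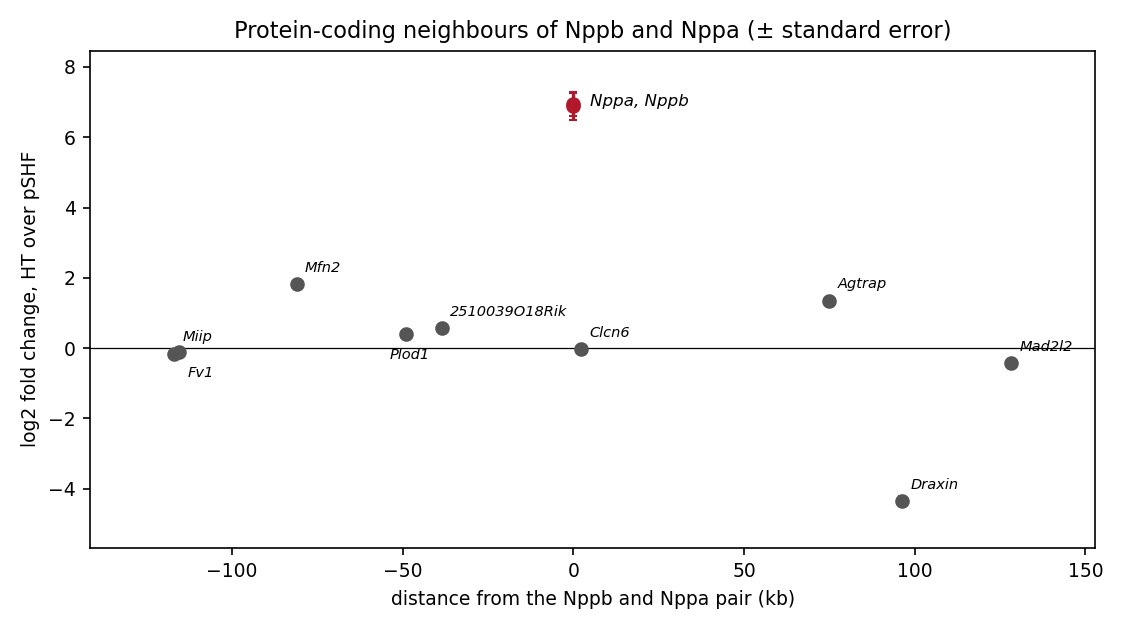
Log2 fold change HT over pSHF (± standard error, limma) of Nppa, Nppb and 9 protein-coding neighbours against distance in kb from the pair. Nppa and Nppb stand at 6.94 and 6.88 and the neighbours between -4.36 and 1.82, with Clcn6, the nearest, at -0.04 (-0.28 with equal library totals).

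Nppc (ENSMUSG00000026241.5; chromosome 1, 86666291 to 86670571, reverse strand) was close to absent from both tissues. Its normalized count was 0 to 3.39 in HT and 0 to 1.08 in pSHF, with a median of 2.30 and 0.394. That is 12 rebuilt reads over the 6 HT libraries, found in 5 of them, and 3 over the 6 pSHF libraries, found in 3. Per read of depth this gives a ratio of 3.95 with an exact 95% interval of 1.07 to 21.8 that covers counting error only. The tests differed on it: limma without a filter on low values gave a log2 difference of 1.04 with an adjusted p of 0.0201, and in the authors' deposited table it was 2.21 with an adjusted p of 0.0794. The raw count table listed no read of Nppc in any library.

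Corin was higher in HT by about a factor of 2.14. Its normalized count ran from 1719 over 1926 to 2086 in HT and from 618 over 939 to 1063 in pSHF, without overlap. The mean was 1892 ± 146 in HT against 896 ± 180 in pSHF (SD, n = 6 each), and the fitted log2 difference was 1.10 ± 0.12 (standard error; limma, adjusted p = 3.83e-07). In pSHF MR13 was again lowest, at 32.7% of the HT mean, and the others lay at 40.1 to 56.2%, so far more of the Corin level than of the Nppa level was present there. Its profile over the libraries was nearest to that of Pcsk5, a proprotein convertase gene, at a root mean square difference of 0.103, followed by Man1a and Pdgfd, each at 0.134. Corin (ENSMUSG00000005220.6) lies on the reverse strand of chromosome 5 from 72300025 to 72504473.

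Among the receptors Npr3 was the one higher in HT. Npr3 (ENSMUSG00000022206.6; chromosome 15, 11839896 to 11907287, reverse strand) ran from 4033 over 4417 to 5329 in HT and from 1527 over 1666 to 1833 in pSHF. The means were 4514 ± 458 in HT against 1659 ± 115 in pSHF (SD, n = 6 each). Every HT library stood above every pSHF library, and the fitted ratio was 2.71 (log2 fold change 1.44, standard error 0.06, limma adjusted p = 1.25e-11). The genes most like it were Psd3 (0.0771), Ndufs1 (0.0803), a subunit of respiratory complex I, and Tspan18 (0.0827). Of 9 genes listed for endothelium and endocardium, 8 passed toward HT, or 7 with equal library totals. Of all genes tested 38.3% passed toward HT and 40.0% toward pSHF. Nfatc1, an endocardial regulator, had 1745 ± 116 normalized counts in HT against 315 ± 47.0 in pSHF. The summed list ran from 22722 to 28248 in HT and from 13165 to 15082 in pSHF. Cldn5 passed toward pSHF (29.5 ± 6.57 in HT against 556 ± 37.4 in pSHF), and no gene of the list was at 0. Their part in the Npr3 difference was not tested.

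In the normalized gene counts the cyclase receptors were slightly higher in pSHF; the raw counts did not show this, Npr1 having the opposite sign there without passing (0.41, edgeR adjusted p = 0.193) and Npr2 not passing (-0.32 without a filter, edgeR adjusted p = 0.767). Npr1 (ENSMUSG00000027931.8; chromosome 3, 90450591 to 90465866, reverse strand) ran from 365 over 430 to 506 in HT and from 540 over 581 to 661 in pSHF. Its mean was 436 ± 51.0 in HT against 585 ± 43.8 in pSHF (SD, n = 6 each), with a fitted log2 difference of -0.43 ± 0.08 (standard error; limma, adjusted p = 0.000114), or 1.35-fold. Npr2 (ENSMUSG00000028469.11; chromosome 4, 43631935 to 43651244, forward strand) ran from 631 over 711 to 776 in HT and from 795 over 841 to 856 in pSHF, the highest HT and the lowest pSHF library being close. Its mean was 701 ± 52.5 in HT against 836 ± 23.2 in pSHF (SD, n = 6 each), with a fitted log2 difference of -0.26 ± 0.05 (standard error; limma, adjusted p = 0.000259), or 1.19-fold. Their sizes depended on scaling: with equal library totals, which moved the median of all genes from -0.02 to -0.26, they were -0.67 and -0.50, and with erythroid genes removed first -0.62 and -0.45. Npr2 is known for its role in cartilage. Of 6 cartilage and sclerotome genes 2 passed toward HT and 4 toward pSHF, against 38.3% and 40.0% of all genes tested. Their summed counts went the other way, from 12484 to 15348 in HT and from 6073 to 11390 in pSHF. The part of these genes in the Npr2 difference was not tested.

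Npr1 was most like Zscan20 (0.0819), Fads2 (0.0865), a fatty acid desaturase gene, and Zfp426 (0.0903), and Npr2 like Pdap1 (0.0435), Ccdc174 (0.0528) and Rexo4 (0.0582). With differences this small, many genes lie as near: Npr2 itself was at 0.172 from Npr1, at rank 1378.

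The make-up of the receptor set differed between the tissues, and a ratio within a library does not depend on how libraries were scaled. Its size did depend on which deposited table was read. Reads of Npr3 per read of Npr1 and Npr2 together were 3.29 to 4.69 in HT, with a median of 3.99, and 1.03 to 1.29 in pSHF, with a median of 1.16. The libraries did not overlap, and the mean log2 ratio differed by 1.76, from 1.98 ± 0.20 in HT to 0.22 ± 0.12 in pSHF (SD, n = 6 each; exact two-sided permutation test, p = 0.00216, the smallest it can give; adjusted over 4 ratios 0.00866). Summed raw counts gave 110 to 95, a ratio of 1.16, in HT and 64 to 92, a ratio of 0.696, in pSHF, so HT exceeded pSHF by 1.66-fold there and by 3.39-fold in the normalized gene counts. The ratio of Npr1 to Npr2 was 0.507 to 0.728 in HT and 0.659 to 0.798 in pSHF, which overlapped (difference -0.17 on the log2 scale, exact permutation p = 0.0974, adjusted 0.130). The raw count table gave the opposite order of these receptors, 82 counts of Npr1 to 13 of Npr2 in HT and 73 to 19 in pSHF, or ratios of 6.31 and 3.84, so the order of Npr1 and Npr2 depends on which deposited table is read.

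In the normalized gene counts per kilobase of annotated exon, Npr3 made up 66.5 ± 3.09% of the summed receptor level in HT and 36.9 ± 1.94% in pSHF (SD, n = 6 each). Npr2 made up 20.9 ± 1.90% in HT and 37.5 ± 0.997% in pSHF. Npr1 made up 12.7 ± 1.87% and 25.6 ± 1.68%. In pSHF the shares of Npr2 and Npr3 differed by less than their spread. These shares hold for the normalized gene counts alone. Summed raw counts of Npr1 and Npr3 were 82 and 110 in HT and 73 and 64 in pSHF. Their exons span 4783 and 9389 bases, so per base Npr1 exceeded Npr3 there in both tissues.

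**Figure D4:**
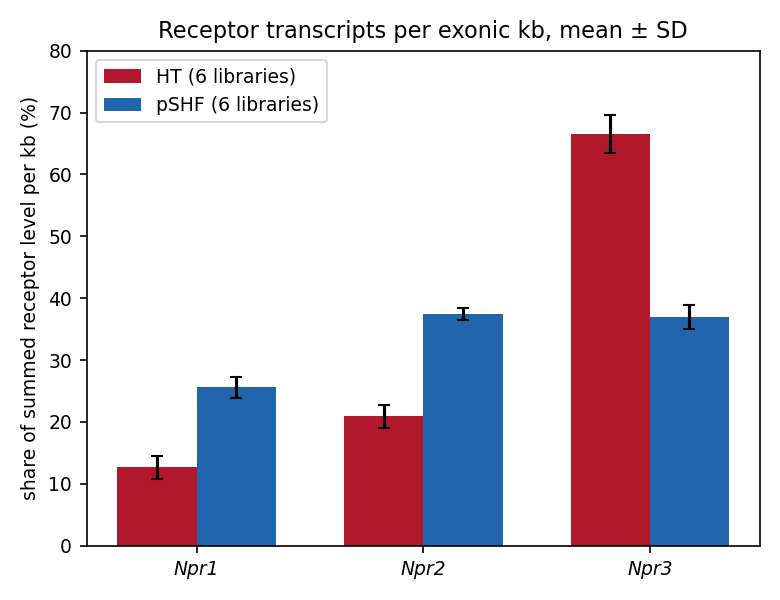
Share of Npr1, Npr2 and Npr3 in their summed level per kilobase of exon (bars, mean; lines, SD over 6 libraries per tissue). In the normalized gene counts Npr3 holds 66.5% in HT and 36.9% in pSHF, where Npr2 holds 37.5%. In the raw counts, not shown, Npr1 exceeded Npr3 per exon base.

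Ordered by normalized count per kilobase in HT, the genes stood as Nppa (31708), Nppb (2228), Npr3 (481), Corin (350), Npr2 (150), Npr1 (91.2) and Nppc (2.06). No 2 neighbours in this order overlapped in their libraries. The order depends on which deposited table is read. Summed raw counts in HT were 82 for Npr1, 72 for Corin and 110 for Npr3. Their exons span 4783, 5400 and 9389 bases, so per base Npr1 stood above Corin and Npr3 there. In pSHF the order was Nppa (310), Npr2 (179), Npr3 (177), Corin (166), Npr1 (122), Nppb (21.9) and Nppc (0.462). There Nppa, Npr2, Npr3 and Corin overlapped in their libraries, Npr1 overlapped with Corin and Nppa, and Nppb and Nppc lay below the rest.

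Genes listed for the processing, storage or clearance of peptides, not all of which act on natriuretic peptides, were mostly higher in HT. Of 9 listed, 8 were tested, 7 being higher in HT and 1 in pSHF, against 38.3% and 40.0% of all genes tested. The median log2 difference was 1.04 against -0.02 over all genes tested. Pam, an amidating enzyme abundant in atrial granules, stood at 28151 ± 2131 in HT against 3797 ± 586 in pSHF (2.90; here and for the genes that follow, levels are mean ± SD over 6 libraries each, the last value in parentheses is the log2 difference HT over pSHF, and each gene named passed an adjusted p of 0.05 in limma). Pcsk6, which activates corin, stood at 1988 ± 167 in HT against 306 ± 21.1 in pSHF (2.69). The difference of Mme, neprilysin, which degrades the peptides, was smaller, at 1063 ± 94.3 in HT against 774 ± 161 in pSHF (0.48); its libraries overlapped, and it did not pass with equal library totals (0.23, adjusted p = 0.0639). Chgb, a granin of secretory granules, went the other way, at 4.84 ± 2.04 in HT against 104 ± 36.5 in pSHF (-4.15). All 5 tested neuronal markers were likewise higher in pSHF, with sums of 555 to 630 in HT and 1922 to 3077 in pSHF and with Neurod1 at 0 in all HT libraries; their part in the Chgb difference was not tested. Ostn, whose product binds the clearance receptor, did not reach the minimum mean.

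Genes that make or break down cyclic GMP went both ways. Of 17 listed, 16 were tested, 4 passing toward HT and 8 toward pSHF, with 4 not past the threshold and a median log2 difference of -0.34; of all genes tested 38.3% passed toward HT and 40.0% toward pSHF. The phosphodiesterase gene Pde5a, whose enzyme is specific for cyclic GMP, stood at 694 ± 59.7 in HT against 4775 ± 670 in pSHF (-2.77). Nos2, the inducible nitric oxide synthase gene, was low in both tissues, at 1.81 ± 0.92 in HT against 33.4 ± 5.68 in pSHF (-3.66). Higher in HT were Nos3, the endothelial nitric oxide synthase gene (1781 ± 170 in HT against 572 ± 34.9 in pSHF; 1.63), Gucy1b3, a subunit of the soluble cyclase (1762 ± 87.7 in HT against 844 ± 95.7 in pSHF; 1.07), Pde3a (0.71) and the exporter gene Abcc4 (0.46). Most endothelial markers given above were also higher in HT, and their part in the Nos3 difference was not tested. Gucy2c, a receptor cyclase of the gut, did not reach the minimum mean.

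Genes acting after cyclic GMP were split evenly. All 10 were tested and passed, 5 toward each tissue, with a median of -0.16. Of all genes tested 38.3% passed toward HT and 40.0% toward pSHF, which is near an even split as well. Pln, a target of the kinase, had the largest difference (10927 ± 928 in HT against 50.7 ± 26.1 in pSHF; 7.87). Prkg1, which encodes a cyclic GMP-dependent kinase, stood at 873 ± 164 in HT against 434 ± 55.0 in pSHF (1.00), and its substrate genes Mrvi1 (1.26), Vasp (0.77) and Ppp1r12a (0.58) were also higher in HT. Rgs4 (45.1 ± 8.78 in HT against 320 ± 20.6 in pSHF; -2.82) and Rgs2 (-1.31), which quench G protein signals, were higher in pSHF. So were Prkg2, the other cyclic GMP-dependent kinase gene (34.4 ± 18.1 in HT against 77.0 ± 19.0 in pSHF; -1.22), the potassium channel gene Kcnma1 (-1.01) and the cation channel gene Trpc6 (-0.90), all of which were named after their values were seen. Of 4 smooth muscle markers 3 were higher in HT and 1 in pSHF, with sums of 42551 to 53728 in HT and 6880 to 9986 in pSHF and none at 0; their part in the differences of Prkg1, Mrvi1, Vasp and Ppp1r12a was not tested.

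Transcription factors known to activate Nppa or Nppb were mostly higher in HT, and the known repressors of Nppa went both ways. Of 9 activators, all tested, 8 passed toward HT and 1 toward pSHF, with a median of 1.69, against 38.3% and 40.0% of all genes tested. Nkx2-5 and Tbx20 differed by 3.76 and 3.66 and Srf by 0.60, whereas Tbx5 (2376 ± 126 in HT against 3564 ± 324 in pSHF; -0.58) went the other way. Of 6 repressors, all tested, 4 passed toward pSHF and 2 toward HT, with a median of -0.515; no test of the difference from those shares was run. Tbx2 stood at 540 ± 41.8 in HT against 3534 ± 190 in pSHF (-2.71) and Tbx3 at 542 ± 59.1 in HT against 2700 ± 172 in pSHF (-2.32). Hey2, a repressor expressed in the compact ventricular wall, was higher in HT, at 1931 ± 189 in HT against 253 ± 22.5 in pSHF (2.93). Tbx18 was also higher in HT (0.67). These lists were counted and not tested as lists, and with equal totals, with equal upper quartiles and with erythroid genes removed their counts differed from those above for Mme alone.

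**Figure D5:**
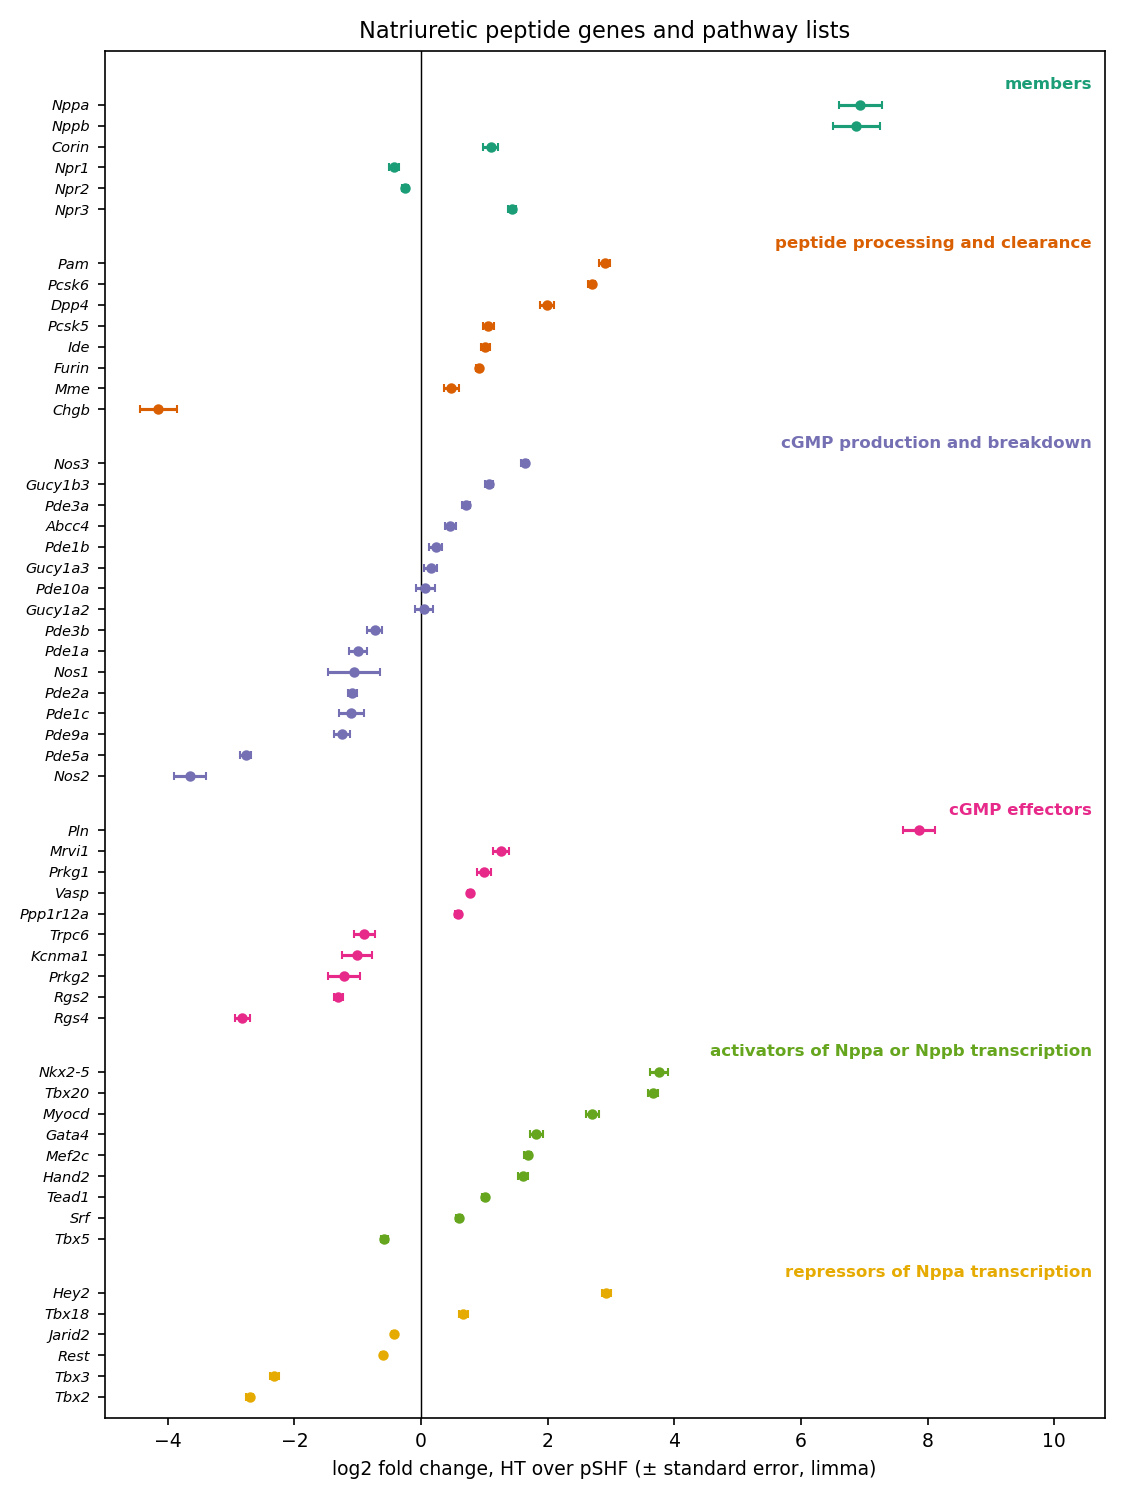
Log2 fold change HT over pSHF (± standard error, limma) of the 6 tested natriuretic peptide genes and of 5 lists of related genes, sorted within each list. Nppa, Nppb and Pln stand near 7 to 8, apart from all other genes shown, which lie between -4.15 and 3.76.

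In the deposited raw counts, a shallow table of 233865 to 340434 counts per library, Nppa, Npr1 and Npr3 had enough counts to be tested. Nppa held 80 to 117 counts per library in HT and 0 to 6 in pSHF, with a fitted log2 difference of 5.14 ± 0.22 (standard error; edgeR quasi-likelihood, adjusted p = 6.88e-26). Npr3 held 11 to 26 in HT and 5 to 17 in pSHF (1.02, edgeR adjusted p = 0.000649), with overlap between libraries. Npr1 did not pass and had the opposite sign, at 10 to 25 in HT and 6 to 17 in pSHF (0.41, edgeR adjusted p = 0.193). In that fit 48.3% of 3370 genes passed, 25.2% toward HT and 23.1% toward pSHF. Nppb held 29 counts over all HT libraries and 1 over all pSHF libraries, Corin 72 and 42, and Npr2 13 and 19. Without the filter edgeR gave Nppb 4.26 (adjusted p = 6.33e-06), Corin 0.97 (adjusted p = 0.0182) and Npr2 -0.32 (adjusted p = 0.767).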

How the data were processed

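Poly-A RNA of 6 HT and 6 pSHF libraries was analysed. The submitters' processing notes name STAR, DESeq2 and the build mm10; no source used here names versions, annotation or counting tool. The deposited comparison table holds, per the file headers, the authors' log2 fold change, its p-value and adjusted p-value, a Wald score, and a signal per library, the normalized gene counts. In that deposited signal a step worth 1 read was found per library, and 46.6 to 49.6% of values up to 20.5 such steps lay within 0.01 of a whole number, from which depths and reads were rebuilt. Rebuilt reads of Nppa, Nppb, Nppc and Npr3 were whole within that tolerance and those of Npr1, Npr2 and Corin were not, so the latter are approximate. A second deposited table holds raw counts per symbol, per the file headers.

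The normalized gene counts were tested with limma (version 3.58.1, trend) on log2(value + 1) keeping genes whose mean reached 5. Raw counts were tested with edgeR (version 4.0.16, TMM, filterByExpr, quasi-likelihood). Both were adjusted by Benjamini-Hochberg over all genes tested and run on simulated data. That simulation gave all genes the same spread setting and changed far fewer genes than passed here, so it does not cover these data. Its measure and pass mark were changed after a first edgeR run. Ratios within a library were tested by exact permutation. DESeq2 (version 1.42.0) was an alternative for raw counts. The members and lists were chosen with earlier results of these data known. All members, 9 neighbours by position, the 3 most alike genes per member, and, from each pathway list, the 2 largest and 2 smallest differences past the threshold plus those against the majority were named; Cldn5, Prkg2, Kcnma1 and Trpc6 were named after their values were seen. Some genes these rules cover are not reported here and are left out of the list counts. Columns carry a tissue and a library code but no replicate number. Exon lengths and positions are those of GENCODE M21 for GRCm38, whose release need not be the authors'. R 4.3.3, Python 3.11.15, pandas 2.3.3 and SciPy 1.17.1 were used.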

Additional observations from a re-analysis of the deposited data

How the results depend on the processing

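No paired analysis was possible because the columns carry no replicate number, so the planned replicate block was not run. Nppa, Nppb, Npr1, Npr2, Npr3 and Corin kept their direction and their side of the threshold under all 10 alternatives of the fit to normalized gene counts and its 12 fits that left out 1 library each. In the raw counts Npr1 had the opposite sign without passing (0.41 in edgeR, adjusted p = 0.193; 0.39 in DESeq2, adjusted p = 0.461), and Npr2 did not pass (-0.32 in edgeR without a filter, adjusted p = 0.767). Over the 10 alternatives the log2 fold change was 6.69 to 7.28 for Nppa, 6.47 to 7.20 for Nppb, 1.20 to 1.49 for Npr3, 0.85 to 1.15 for Corin, -0.67 to -0.41 for Npr1 and -0.50 to -0.23 for Npr2. Leaving out 1 library gave 6.61 to 7.23, 6.51 to 7.17, 1.39 to 1.47, 1.00 to 1.16, -0.47 to -0.38 and -0.29 to -0.23. Without a filter, edgeR called 1497 raw-count genes higher in HT and 1392 in pSHF, in place of 850 and 779; fewer genes are tested with the filter. The ratio of Nppc to Npr2, with 1 added to each value, differed by 1.29 on the log2 scale (exact permutation, adjusted p = 0.0216); leaving out 1 library gave 1.14 to 1.61, and the call was lost without pSHF library MR13, MR14 or MR15 (adjusted p = 0.0563 each). It rests on 15 reads in all, and depth limits what can be said of Nppc.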

Other observations

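Raw counts as a percentage of rebuilt reads differed among the natriuretic peptide genes. Whether the raw counts are a subset of those reads is not known, and rebuilt reads of Npr1, Npr2 and Corin are approximate. Over whole libraries it was 1.08 to 1.30%. In HT it was 0.388% for Nppa, 0.299% for Nppb, 0.333% for Npr2, 0.437% for Npr3, 0.684% for Corin and 3.38% for Npr1. In pSHF it was 1.03% for Nppa (19 raw counts to 1838 rebuilt reads) and 0.847% for Nppb (1 to 118). It was 0.348% for Npr2, 0.586% for Npr3, 0.708% for Corin and 1.92% for Npr1 in pSHF. GENCODE places the gene Gm16048 over 559 exon bases of Npr1 on the opposite strand, Gm12473 over 266 of Npr2, Gm5144 over 321 of Npr3 and Gm20647 over 147 of Corin, and none over Nppb or Nppc. Whether reads from the opposite strand enter either table was not tested.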
